A study of Mus musculus with 2 samples.

Results

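The glutathione and thioredoxin defence genes examined here are 10 genes of mouse embryonic stem cells: Gstp1, Gstp2, Gsta4, Gsto1, Gclm, Txn1, Txnrd1, Prdx1, Nqo1 and Hmox1. They were found by symbol among the 32285 genes listed, and each matched 1 row. The set was chosen from levels and ratios measured in these same libraries, so its values are given as descriptions. The cells were E14 embryonic stem cells of the 129/Ola background. There was 1 library of cells given a control small interfering RNA (control) and 1 library of cells given an siRNA against Son (sonKD), a gene for a nuclear speckle protein needed in splicing. Both groups were cultured with 15% serum, leukaemia inhibitory factor and 0.1 mM beta-mercaptoethanol, a thiol reductant, and were transfected with a lipid reagent. Both were collected 24 hours after transfection, frozen, thawed, stained with 7-AAD and sorted for viable cells before droplet barcoding of RNA 3' ends.

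Glutathione and thioredoxin are the main thiol reductants of the cell. Glutathione is made by glutamate-cysteine ligase, of which Gclm encodes the modifier subunit, and glutathione transferases (Gstp1, Gstp2, Gsta4, Gsto1) use it on electrophiles and oxidised substrates. Thioredoxin (Txn1) reduces protein disulfides and peroxiredoxins such as Prdx1, which break down peroxides, and it is kept reduced by thioredoxin reductase (Txnrd1). Nqo1 encodes a quinone reductase and Hmox1 the heme oxygenase that opens heme and releases its iron. Many of these genes are induced by the transcription factor NRF2 (encoded by Nfe2l2), which KEAP1 marks for degradation and whose sites BACH1 can occupy, with Hmox1 a well-known BACH1 target.

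With 1 library per group, no test was possible, no p-value is given, and an effect of the siRNA and any other difference between the libraries cannot be told apart. The labels do not say how many cultures each library came from. Barcodes were read as cells where they had 2500 or more UMIs (unique molecular identifiers, each marking 1 captured molecule), 1000 or more genes and no more than 10% mitochondrial UMIs. This left 4978 control cells with a median of 7737.5 UMIs and 2731 sonKD cells with a median of 11612 UMIs. The libraries shared 2 cell barcodes. Of the barcodes past the UMI and gene minimums, 11.2% in control and 27.9% in sonKD were left out for their mitochondrial share. Ribosomal protein genes took 19.1% of control and 22.4% of sonKD cell UMIs. The labelled cell type was checked against 10 stem cell markers, which were all at 10 CPM (UMIs scaled to a total of 1000000) or more and summed to 8697 CPM in control, against 9439 CPM in sonKD. Markers of fibroblast feeders summed to 3.18 and 3.65 CPM, with Col3a1 and Postn at 0 in both libraries. Those of primitive endoderm (6.28 and 5.06 CPM), trophectoderm (4.23 and 4.87 CPM, Elf5 at 0) and mesoderm (4.33 and 4.09 CPM) were also low. The neuroectoderm markers summed to 51.5 and 48.5 CPM, nearly all from Tubb3, with Neurog2 at 0. The siRNA target Son had 169 CPM in control, against 106 CPM in sonKD, or 62.7% of control.

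Gstp1 and Gstp2 are neighbouring paralogs on the minus strand of chromosome 19 (GRCm38; Gstp1 chr19:4035407-4037985, Gstp2 chr19:4040285-4046023). They are shown first because a 3' end library reads the part of the transcript in which they are alike. Of the 633 bases of coding sequence, 621 were identical, and the 66 bases of 3' untranslated sequence did not differ at all. The last difference lies at coding position 330, and the 369 bases of the transcript from there to the annotated end hold none. The 150 bases of coding sequence from position 268 to 417 hold the 6 differences closest to the 3' end, in capitals here.
Gstp1: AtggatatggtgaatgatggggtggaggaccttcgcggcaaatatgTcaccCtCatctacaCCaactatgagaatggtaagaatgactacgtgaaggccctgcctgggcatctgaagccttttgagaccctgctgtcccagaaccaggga
Gstp2: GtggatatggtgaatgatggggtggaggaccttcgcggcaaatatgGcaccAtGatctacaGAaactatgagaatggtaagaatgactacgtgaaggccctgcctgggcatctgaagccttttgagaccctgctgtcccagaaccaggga
Counted from the first coding base, with the base of Gstp1 first, these are A268G, T314G, C319A, C321G, C329G and C330A. They come from the reference transcripts. The E14 strain was not compared with them. Cut into overlapping words of 64 bases, the last 500 bases of Gstp1 had 71.2% of their words in transcripts of other genes, namely Gstp2 and the pseudogene Gstp-ps. For Gstp2 the share was 85.4%. None of the words of the other 8 members occurred elsewhere. Each gene was read from its chosen annotated transcript only, and other annotated 3' ends of the same gene were not cut into words. How a read that fits several genes was counted is not given in the sources used here, so the split of UMIs between Gstp1 and Gstp2 is uncertain and their sum is given beside each.

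The promoters were searched because several members are known NRF2 targets. RefSeq windows (GRCm38.p6) from 250 bases before to 50 bases after the start site were matched for 8 of the 10 genes. Gsta4 and Hmox1 were not matched. The motifs were TGACNNNGC, a core of the antioxidant response element, and TGANTCAGC, a core of the related MAF and AP-1 type sites, on both strands. They can overlap, and Prdx1 has both on the same bases. TGACNNNGC occurred in 12.4% and TGANTCAGC in 1.19% of 32851 windows of that length. The matches, in capitals with 10 bases on each side on the gene's own strand, were as follows.
Gstp1, chr19:4037968-4037996, minus strand: tccaacgtgtTGAGTCAGCatccggggcg
Gstp2, chr19:4042292-4042320, minus strand: tccaacgtgtTGAGTCAGCatccggggcg
Gclm, chr3:122245413-122245441, plus strand: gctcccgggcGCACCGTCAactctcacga
Txnrd1, chr10:82859104-82859132, plus strand: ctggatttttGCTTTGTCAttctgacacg
Prdx1, chr4:116685456-116685484, plus strand: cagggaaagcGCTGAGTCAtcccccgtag
Gstp1 and Gstp2 have the same 29 bases around the match, 74 and 89 bases before their RefSeq start sites. In the GENCODE spans given above, the 29 bases of Gstp1 cross the gene's 5' end and those of Gstp2 lie inside the gene. The 250 bases upstream of the RefSeq start sites were identical at 207 of 265 aligned positions (78.1%). The match of Txnrd1 is in 1 of its 3 annotated promoter windows. These letters did not occur in the windows of Gsto1, Txn1 or Nqo1. A match is a description of the sequence and not a measured binding site.

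Levels were taken from UMIs summed over the cells of each library, in CPM, with exact Poisson intervals at 95% that cover counting error only. One 3' end is counted per molecule, so levels were not divided by transcript length. Prdx1 was the most abundant of the 10 genes in both libraries and Gstp2 the least. In control the order from the top was Prdx1, Gsta4, Txn1, Txnrd1, Gclm, Hmox1, Nqo1, Gsto1, Gstp1 and Gstp2. In sonKD it differed at 1 place, with Txn1 above Gsta4. No neighbours in either order had overlapping intervals, although Nqo1 (44.0 to 48.2 CPM) and Gsto1 (39.6 to 43.6 CPM) nearly met in control. The spread between cultures is unknown.

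**Figure D1:**
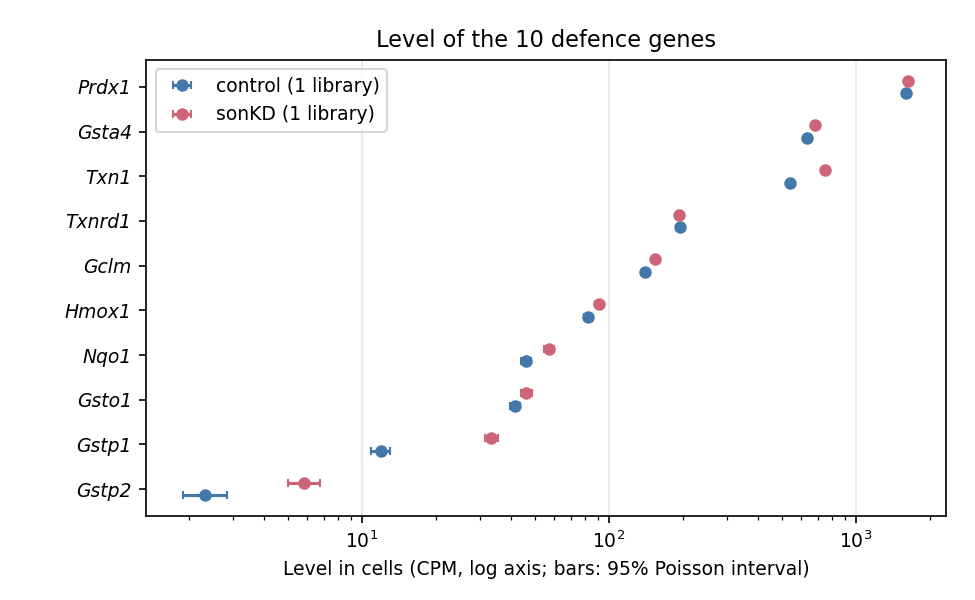
Level of each gene in CPM on a log axis, with 1 point per library (control and sonKD) and bars for the 95% Poisson interval. The genes run from Gstp2 at 2.32 CPM in control to Prdx1 at 1596 CPM, and the points lie farthest apart for Gstp1 and Gstp2.

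Gstp1 and Gstp2 had the largest ratios of the 10 genes. Gstp1, a pi-class transferase, had 11.9 CPM in the control library (10.9 to 13.0, from 487 UMIs) and 33.3 CPM in sonKD (31.4 to 35.4, from 1068 UMIs). Its log2 ratio of sonKD over control was 1.49 (exact conditional binomial interval 1.33 to 1.64), the 6th highest of 8063 genes whose mean over both libraries reached 10 CPM. Gstp2 had 2.32 CPM in the control library (1.88 to 2.84, 95 UMIs) against 5.84 CPM in sonKD (5.03 to 6.74, 187 UMIs), a log2 ratio of 1.33 (0.97 to 1.70). Its mean was under 10 CPM, so it is not among the genes counted below. Summed, which does not depend on how reads were split between these rows, the pair went from 14.2 CPM in control to 39.2 CPM in sonKD, 2.75-fold, with a log2 ratio of 1.46 (1.32 to 1.61). The Gstp1 row held 83.7% of the pair's UMIs in control and 85.1% in sonKD. Gstp3, the third gene of the cluster, shared none of its 3' end and had a ratio in the other direction, from 4.13 CPM to 2.87 CPM (log2 ratio -0.52, -0.91 to -0.15).

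Shared 3' ends moved with high ratios over all genes, and these values stand beside that of Gstp1. Of 186 genes that shared at least 50% of their 3' end words, 24.7% had a log2 ratio of at least 0.3. Among 482 genes with a smaller share it was 11.8%, and among 7393 genes with none it was 2.79%. Of the 17 genes with a ratio of at least 1, 13 shared at least 50% and 4 shared none. The part of shared sequence in the ratio of Gstp1 was not tested.

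**Figure D2:**
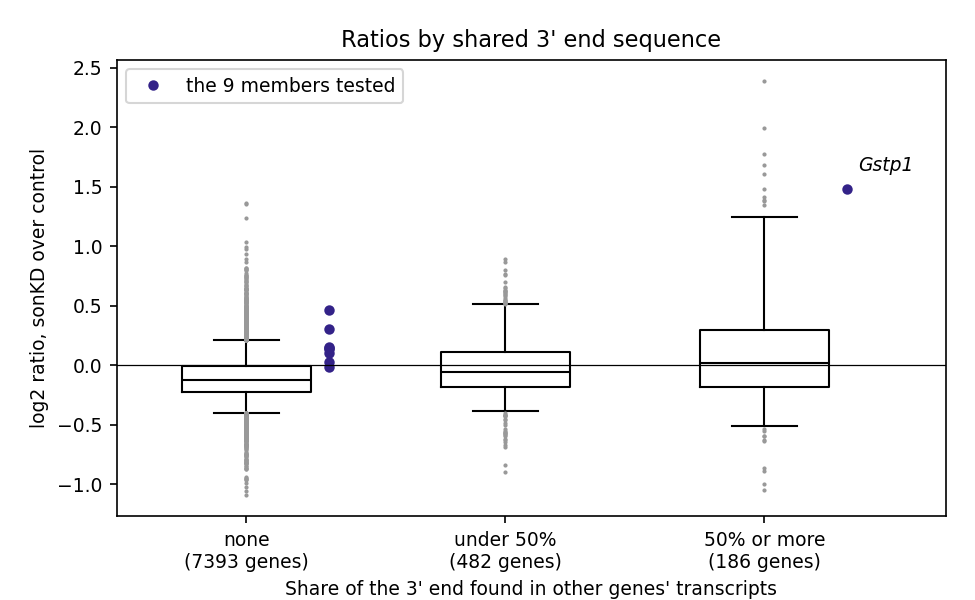
Log2 ratio of sonKD over control for all genes tested, grouped by the share of the 3' end found in transcripts of other genes. Boxes give the quartiles and median, whiskers the 5th and 95th percentiles, grey points the genes beyond them, and dark points the 9 members tested. Gstp1, at 1.49, lies in the group sharing 50% or more, whose 95th percentile was 1.32, and the other 8 lie in the group sharing none.

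The remaining transferases differed little between the libraries. Gsta4 (chr9:78182774-78209349), an alpha-class transferase that acts on the lipid peroxidation product 4-hydroxynonenal, had 634 CPM in the control library (626 to 642) against 681 CPM with sonKD (672 to 690), a log2 ratio of 0.10 (0.08 to 0.13). Gsto1 (chr19:47854970-47864790), an omega-class transferase with thiol transferase activity, was at 41.6 CPM (39.6 to 43.6) and 46.3 CPM (43.9 to 48.7), a log2 ratio of 0.15 (0.05 to 0.26). Gclm (chr3:122245557-122270732), on the synthesis side, was at 139 CPM (136 to 143) and 154 CPM (150 to 158), a log2 ratio of 0.14 (0.09 to 0.20). All 3 were higher in sonKD by more than counting error and by less than 0.3.

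Within the thioredoxin system, Txn1 stood apart from its reductase and from its substrate. Txn1 (chr4:57943373-57956411) had 541 CPM in the control library (534 to 548) against 747 CPM with sonKD (737 to 756), a log2 ratio of 0.47 (0.44 to 0.49) and the 143rd highest of 8063. Txnrd1 (chr10:82833951-82897712) was at 194 CPM (190 to 199) and 193 CPM (188 to 198), a log2 ratio of -0.01 (-0.06 to 0.04), which was above 0 when scaled with TMM factors from edgeR (0.08) and when mitochondrial and ribosomal protein genes were left out of the total (0.06). Prdx1 (chr4:116685544-116700822) was at 1596 CPM (1584 to 1608) and 1630 CPM (1616 to 1644), a log2 ratio of 0.03 (0.01 to 0.05).

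Nqo1 (chr8:107388225-107403206) had 46.1 CPM in the control library (44.0 to 48.2) against 57.1 CPM with sonKD (54.5 to 59.8), a log2 ratio of 0.31 (0.22 to 0.40). It was 0.26 with a limit of 5% mitochondrial UMIs and 0.29 with the barcodes of most UMIs removed as likely doublets. Hmox1 (chr8:75093621-75100589) was at 82.2 CPM (79.4 to 85.0) and 90.7 CPM (87.4 to 94.0), a log2 ratio of 0.14 (0.07 to 0.21). Of the regulators named above, Nfe2l2 was at 75.5 and 73.4 CPM, Keap1 at 26.7 and 24.7 CPM, and Bach1 at 22.6 and 23.0 CPM, each with an interval of the ratio that included 0.

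Of the 9 members that reached a mean of 10 CPM, 3 had a log2 ratio of at least 0.3 (Gstp1, Txn1 and Nqo1) and 0 had one of -0.3 or less. Over all 8063 genes the shares were 3.83% higher and 12.5% lower (309 and 1005 genes), and with TMM factors the counts were 510 higher and 445 lower. The median log2 ratio was 0.14 over the 9 members and -0.12 over all genes, whose 5th and 95th percentiles were -0.40 and 0.25. The ratio was above 0 for 9 of all 10 members, and for 25.1% of all genes tested. Since this contrast was known when the members were chosen, nothing is read from these counts. The 10 genes together held 3289 CPM in control, against 3638 CPM in sonKD.

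**Figure D3:**
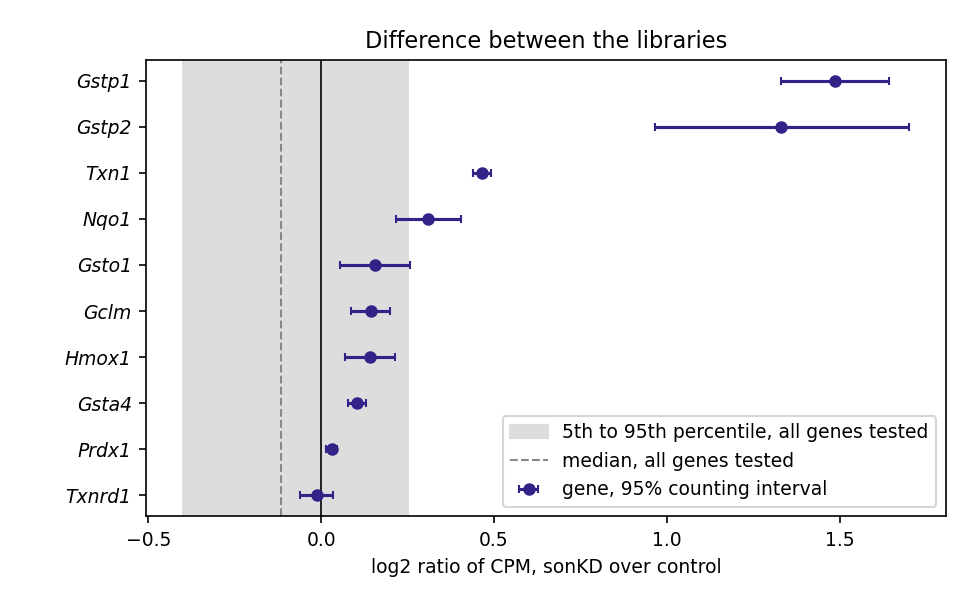
Log2 ratio of CPM, sonKD over control, for each of the 10 genes, with the 95% counting interval. The grey band is the 5th to 95th percentile of all genes tested (-0.40 to 0.25) and the dashed line their median. Gstp1, Gstp2, Txn1 and Nqo1 lie above the band.

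Per cell, the genes ranged from nearly always to rarely detected. For shares, every cell was brought to 2500 randomly drawn UMIs (thinned), which left out no cell. Prdx1 then had a UMI in 96.8% of control and 97.4% of sonKD cells. Gsta4 was seen in 77.5% and 80.7%, and Txn1 in 72.9% and 82.9% (exact binomial intervals 71.6 to 74.1 and 81.4 to 84.3). Txnrd1 was seen in 36.8% and 36.4% of cells, Gclm in 27.9% and 31.5%, Hmox1 in 17.4% and 17.7%, Nqo1 in 11.1% and 13.8%, and Gsto1 in 9.96% and 10.6%. The share for Gstp1 was 2.95% in control (2.50 to 3.46) and 7.29% in sonKD (6.34 to 8.33), and Gstp2 in 0.522% and 1.39%. Without thinning, the Gstp1 shares were 9.06% and 31.5%, in libraries that differ in depth. No cell type known to lack these genes was present to give a background. The level in free RNA is given further on but is no such floor. In control, Txn1 was 1.89 times as high there as in cells.

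Cells rarely held UMIs of both Gstp1 and Gstp2. At full depth, 7 control cells had both, 444 only Gstp1, 82 only Gstp2 and 4445 neither. In sonKD, 72 cells had both, 789 only Gstp1, 105 only Gstp2 and 1765 neither. Gstp2 was found in 1.55% of control cells with Gstp1 (0.63 to 3.17) and 1.81% of those without (1.44 to 2.24). In sonKD it was found in 8.36% of cells with Gstp1 (6.60 to 10.4) and 5.61% of those without (4.62 to 6.76), and after thinning only 5 sonKD cells held both. The highest Gstp1 count in a cell was 3 in control and 4 in sonKD, so the UMIs were spread over many cells.

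Hmox1 was the most uneven of the 8 members that averaged 0.1 UMI or more per thinned cell. Its Fano factor (variance over mean of UMIs per thinned cell) was 1.95 in control, the 20th highest of 3653 genes at that level, and 1.69 in sonKD, the 44th. Prdx1 followed with 1.31 and 1.25, but the Fano factor tends to rise with the mean, and Prdx1 is the most abundant. Txn1 was at 1.05 in control and 1.14 in sonKD, where the median gene was at 1.04 in both.

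Cells with 3 or more Hmox1 UMIs after thinning were few: 36 in control (0.723%, 0.507 to 1.00) and 31 in sonKD (1.14%, 0.773 to 1.61). They held 15.7% of the thinned Hmox1 UMIs in control and 19.4% in sonKD. They are a range of counts and not a cell type, and 828 control and 453 sonKD cells had 1 or 2 Hmox1 UMIs. In control, the mean of Gclm was 0.331 UMI per thinned cell without Hmox1 (0.313 to 0.349) and 1.22 in the cells with 3 or more (0.888 to 1.64). In sonKD it was 0.378 and 0.968 (0.653 to 1.38). Prdx1 went from 3.92 to 6.61 UMIs in control and from 3.99 to 5.45 in sonKD, and Txn1 from 1.32 to 2.08 and from 1.83 to 2.81. Txnrd1 went from 0.475 to 0.806 (0.539 to 1.16) in control and from 0.479 to 0.871 (0.574 to 1.27) in sonKD. These 4 genes were thus higher in the Hmox1-rich cells of both libraries by more than counting error. In cells with 1 or 2 Hmox1 UMIs, Txnrd1 was not higher than in cells without (0.464 in control and 0.475 in sonKD). Gsta4, at 1.56 and 1.64 UMIs in control and at 1.70 and 1.55 in sonKD, had overlapping intervals, as had Nqo1 (0.120 and 0.139, then 0.150 and 0.258). Gsto1 was lower in the Hmox1-rich cells of both libraries (0.108 and 0.0556, then 0.120 and 0.0323), also with overlapping intervals. Intervals overlapped for Gstp1 too (0.0294 and 0.0833, then 0.0708 and 0.0323).

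Fth1, Sqstm1 and Ftl1-ps1 are the genes most correlated with Hmox1 over these same cells, so their higher level in the Hmox1-rich cells follows from how they were picked and is given as a description. Fth1, the ferritin heavy chain, went from 5.17 to 13.4 UMIs per thinned cell in control and from 5.01 to 9.23 in sonKD. Sqstm1, which encodes the autophagy receptor p62 that binds KEAP1, went from 0.156 to 1.17 and from 0.162 to 0.839. Ftl1-ps1, annotated as a ferritin light chain pseudogene, went from 21.0 to 57.7 and from 14.3 to 33.4. The stem cell marker Pou5f1 was at 2.75 and 2.33 UMIs in control and at 2.26 and 1.90 in sonKD. The Hmox1-rich cells also had a higher median mitochondrial share (6.37% against 3.65% in control, 5.91% against 4.11% in sonKD) and fewer UMIs before thinning (medians 5103.5 against 7802, and 8526 against 11634). The part of these cell properties in the differences was not tested.

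**Figure D4:**
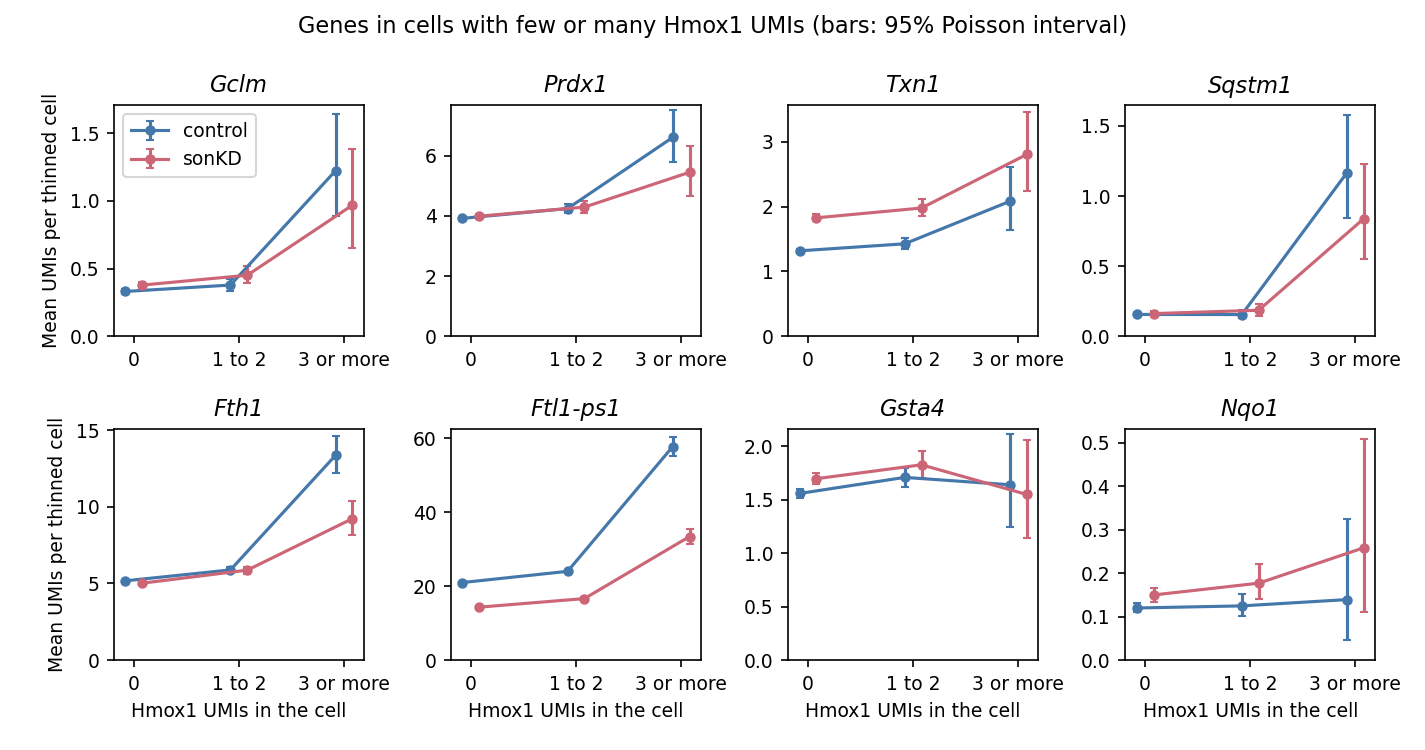
Mean UMIs per thinned cell of 8 genes (y axis, from 0) in cells with 0, 1 to 2, or 3 or more Hmox1 UMIs (x axis), in control and sonKD, with 95% Poisson intervals. Gclm, Prdx1, Txn1, Sqstm1, Fth1 and Ftl1-ps1 are highest at 3 or more, a group of 36 control and 31 sonKD cells. For Gsta4 and Nqo1 the intervals at 0 and at 3 or more overlap. In control, Gsta4 is higher at 1 to 2 (1.62 to 1.80) than at 0 (1.52 to 1.60).

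Correlations between the members over cells were small in these sparse counts. Pearson's r was taken over the thinned cells of each library (n = 4978 and 2731) for the 28 pairs of the 8 members that reached 0.1 UMI per thinned cell, which leaves out Gstp1 and Gstp2. All cells of a library share its preparation and, after thinning, the same depth. The median r was 0.016 in control and 0.039 in sonKD, against 0.00042 and 0.00053 for all pairs of 3653 genes. It depended on the scale: with cells thinned to 4000 UMIs it was 0.024 in control and 0.071 in sonKD, and on log counts without thinning 0.037 and 0.104. It was above 0 in 21 pairs in control and 24 in sonKD, and in 50.9% and 51.0% of all pairs. Sparse counts keep r small, and such values are no measure of how tightly the genes are linked.

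Hmox1 and Gclm were the most correlated pair, with r of 0.13 in control and 0.11 in sonKD. Prdx1 and Hmox1 had r of 0.11 and 0.09, Gsta4 and Prdx1 0.11 and 0.07, Txn1 and Prdx1 0.07 and 0.10, and Txn1 and Hmox1 0.07 and 0.09. Txnrd1 went with Gclm (0.06 and 0.08) and Nqo1 (0.05 and 0.06) and not with Prdx1 (-0.041 and -0.0037) or Gsta4 (-0.037 and -0.0014). In all, 9 pairs were above the 95th percentile of all pairs in both libraries, which was 0.034 in control and 0.039 in sonKD. All pairs were not matched to the members by level, and their share above it in both libraries was not computed. Without the cells of 3 or more Hmox1 UMIs, the median r was 0.013 in control and 0.033 in sonKD.

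**Figure D5:**
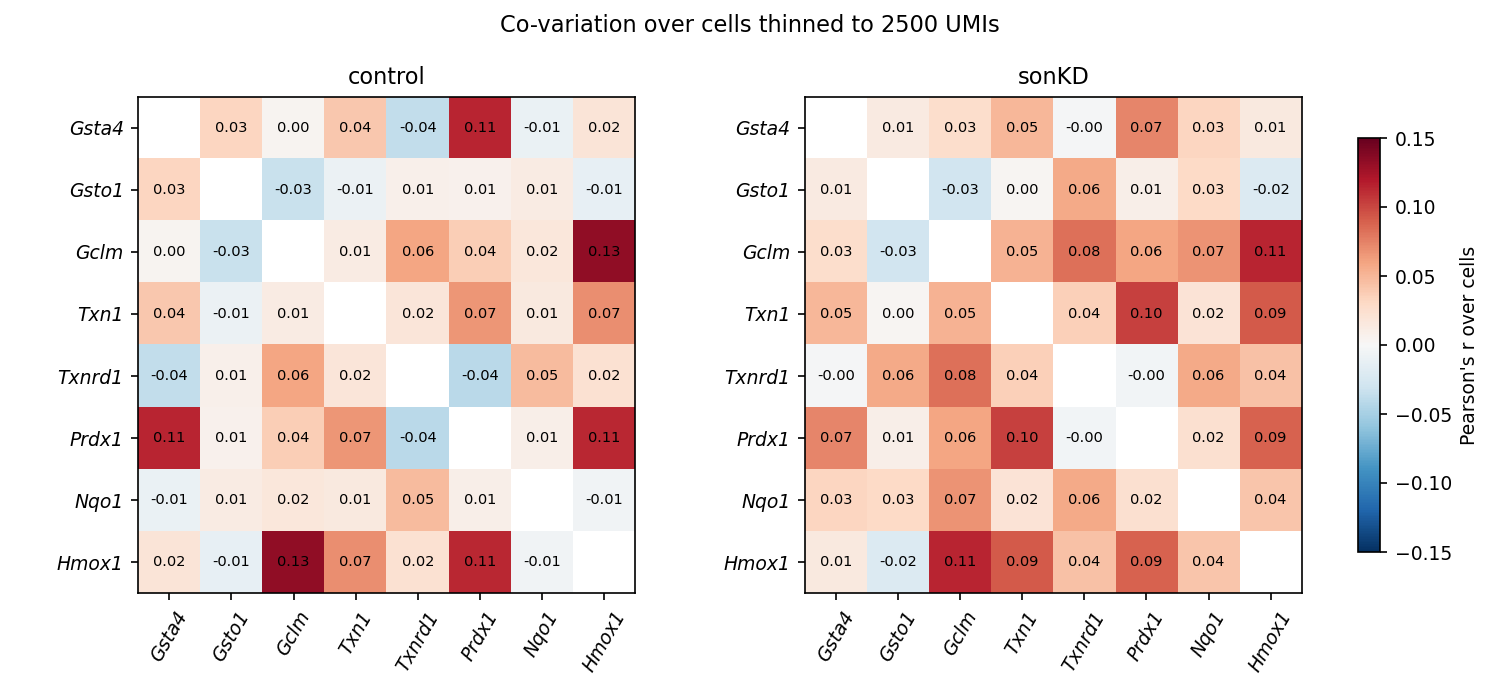
Pearson's r over cells thinned to 2500 UMIs for each pair of 8 genes, in control (left) and sonKD (right), with r printed in each square. The darkest squares in control are Gclm with Hmox1 (0.13) and Prdx1 with Gsta4 and Hmox1 (0.11 each). In sonKD they are Gclm with Hmox1 (0.11), Txn1 with Prdx1 (0.10), and Hmox1 with Txn1 and Prdx1 (0.09 each).

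Some members followed the ribosomal or mitochondrial share of the cells and others did not. Prdx1 had r of 0.27 in control and 0.20 in sonKD with the ribosomal protein share of a cell, Gsta4 0.16 and 0.14, Txn1 0.13 and 0.12, and Txnrd1 -0.12 in both. With the same share, Hmox1 had r of 0.069 and 0.081, Gclm 0.00036 and 0.030, Nqo1 0.0062 and -0.0035, and Gsto1 0.015 and -0.032. Hmox1 had r of 0.11 and 0.09 with the mitochondrial share, Gsta4 -0.15 and -0.08, and Prdx1 -0.115 and -0.064. Txnrd1 (0.041 and 0.090) and Nqo1 (0.023 and 0.080) had a higher r with it in sonKD than in control. Gclm had 0.0090 and 0.019, Gsto1 -0.022 and 0.038, and Txn1 -0.046 and 0.034. With both shares regressed out, the median r of the 28 pairs was 0.016 in control and 0.037 in sonKD. Single pairs were not recomputed, and the part of these shares in their r was not tested.

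The genes whose pattern over cells was most like each member were ranked by the lower of the r in control and sonKD. Ftl1-ps1 came first for Hmox1 (0.29 and 0.27), Prdx1 (0.24 and 0.25), Txn1 (0.16 and 0.23), Gclm (0.16 and 0.17), Gsta4 (0.12 and 0.14) and Nqo1 (0.11 and 0.12). Next for Hmox1 were Fth1 (0.23 and 0.19) and Sqstm1 (0.17 and 0.17), and for Gclm the metallothionein Mt1 (0.12 and 0.14) and Fth1 (0.12 and 0.16). Txn1 was followed by Fth1 (0.12 and 0.20) and Apoe (0.09 and 0.13), and Nqo1 by Cbr3, a carbonyl reductase (0.07 and 0.07), and Fth1 (0.07 and 0.08). Gsta4 went with the ribosomal protein genes Rpl14 (0.12 and 0.10) and Rpsa (0.10 and 0.13), and Prdx1 with Ppia (0.16 and 0.16) and Rpsa (0.19 and 0.15). Txnrd1 went with the nuclear RNA Malat1 (0.10 and 0.12), Cbr3 (0.08 and 0.10) and Akap12 (0.09 and 0.06). Gsto1 had none of these, but Sfn (0.08 and 0.09), Capg (0.05 and 0.07) and S100a6 (0.05 and 0.07). Ftl1-ps1 shared 80.5% of its 3' end with other genes, and how such reads were assigned is not given in the sources used here.

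Free RNA was read from barcodes of 100 to 500 UMIs. Txn1 was 1.89 times as high there as in cells in control and 1.85 times in sonKD, and Prdx1 1.67 and 1.61 times. Gclm (0.67 and 0.72), Txnrd1 (0.68 and 0.63) and Gsto1 (0.82 and 0.73) were lower there than in cells. Gstp1 (1.20 and 1.16), Gsta4 (1.13 and 1.18) and Nqo1 (1.16 in both) were somewhat higher, and Hmox1 (1.05 and 1.06) was close to cells. Of these 4 genes, the intervals of free RNA and cells overlapped for Hmox1 in both libraries and for Gstp1 in control. The log2 ratio of sonKD over control in free RNA was 1.43 for Gstp1, 0.44 for Txn1 and 0.31 for Nqo1. In the third of cells with most UMIs it was 1.58, 0.48 and 0.33. The part of free RNA in the cell values was not tested.

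Barcodes left out for more than 10% mitochondrial UMIs had lower Gsta4 (0.56 times the level in cells in control and 0.68 times in sonKD) and Prdx1 (0.63 and 0.68 times). Gsto1 (0.54 and 0.55 times) and Gstp1 (0.34 and 0.53 times, from 8 UMIs in control) were also lower. Nqo1 was at 1.19 and 1.35 times, but in control its interval (44.9 to 66.0 CPM) overlapped that of cells (44.0 to 48.2 CPM). Just inside that limit, at 8 to 10%, Prdx1 had 1261 CPM in control, against 1422 CPM in sonKD, and just outside, at over 10 to 12%, at 1157 and 1310 CPM. Txn1 was at 498 and 770 CPM inside and at 459 and 727 CPM outside. At the UMI minimum, Prdx1 was at 1445 and 1193 CPM in barcodes from 2500 to under 3000 UMIs and at 1139 and 1099 CPM in those from 2000 to under 2500.

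The wider pathways were described from lists of known genes that include the members, and only genes reaching a mean of 10 CPM were counted. Over all genes tested, 3.83% were at least 0.3 higher and 12.5% at least 0.3 lower (with TMM factors 510 and 445 of 8063 genes), and nothing is called particular to a list from its count. Glutathione synthesis had 6 of 9 genes at that level, with 0 at least 0.3 higher and 1 at least 0.3 lower, the glutathione-degrading enzyme Chac1 (17.2 to 12.8 CPM, log2 ratio -0.43). The amino acid transporter subunit Slc3a2 was at 205 and 172 CPM (-0.25), and the list's median was 0.01. Among 10 of 13 genes of glutathione use none passed 0.3 in either direction, with a median of 0.08. The farthest were Gpx4, which reduces lipid peroxides (945 to 809 CPM, -0.22), and Esd (207 to 242 CPM, 0.22). Of 25 transferases, 9 were counted, and 2 were at least 0.3 higher and 0 lower, with a median of 0.10. These were the member Gstp1 and the microsomal Mgst3 (22.6 to 35.8 CPM, 0.66). The medians compare with -0.12 over all genes tested.

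For the lists that follow too, 3.83% of all genes tested were at least 0.3 higher and 12.5% at least 0.3 lower. In the thioredoxin list, 16 of 18 genes were counted, 2 were at least 0.3 higher and 0 lower, and the median was 0.00. These were the member Txn1 and Srxn1, which encodes the sulfiredoxin that restores overoxidised peroxiredoxins (20.8 to 27.6 CPM, 0.41). Of 10 genes that control NRF2, 8 were counted, none passed 0.3, and the median was 0.05. The farthest were Rbx1 (399 to 478 CPM, 0.26) and Cul3 (140 to 126 CPM, -0.15), both parts of the ubiquitin ligase that KEAP1 serves. Of 27 NRF2 targets, 24 were counted, 6 were at least 0.3 higher (Nqo1, Txn1, Srxn1, Ftl1, Cbr3 and Gstp1) and 1 lower (Blvrb, 106 to 78.5 CPM, -0.44), with a median of 0.01. Of the 6, 3 (Nqo1, Txn1 and Gstp1) are members chosen with this contrast known, so nothing is read from this count. Cbr3 was at 48.7 and 82.4 CPM (0.76). Ftl1 was at 15.8 and 26.2 CPM (0.72), while Ftl1-ps1 was at 8428 and 5767 CPM (-0.55). Of the 3' end words of Ftl1, 73.9% occurred in transcripts of other genes. Whether Ftl1-ps1 was among these genes was not recorded. Of the superoxide and peroxide enzymes, all 3 were counted, with a median of 0.18, and mitochondrial Sod2 was at least 0.3 higher (201 to 248 CPM, 0.30), while cytosolic Sod1 was at 84.2 and 95.1 CPM (0.18).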

How the data were processed

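The values are unnormalised UMI counts for each gene and barcode, which the authors deposited as made with Cell Ranger 7.1.0, per the file headers, on the build mm10, per the submitters' processing notes. All barcodes are listed, and the annotation and the handling of intronic and multi-gene reads are not given in the sources used here. Libraries held 71046373 (control) and 60352438 (sonKD) UMIs, of which the cells held 40902904 and 32032551. Counts were summed over cells, scaled to CPM and compared as log2 ratios with no pseudocount. No doublet caller was run. Positions are from GENCODE M21 on GRCm38, which holds 32235 of the 32285 gene IDs. Python 3.11.15, numpy 2.4.6, scipy 1.17.1, pandas 2.3.3, Biopython 1.88 and edgeR 4.0.16 (TMM factors only) were used, and the ratio and interval code was checked on simulated counts. Named genes are the members, all Gstp rows, Nfe2l2, Keap1, Bach1, Son, the 2 genes of each list farthest from 0 and the 3 genes most like each member. Ftl1, Blvrb and Pou5f1 lie outside that rule and were chosen after their values were seen. The members and lists were chosen with earlier results of these data known.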

Additional observations from a re-analysis of the deposited data

Results flagged for a closer look

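Free RNA, in barcodes of 100 to 500 UMIs that the comparisons of cells do not use, held 7 of the 10 genes at a higher level in sonKD than in control, with counting intervals that did not overlap. The same was not computed over all genes, and the members were chosen with this contrast known, so nothing is read from this count. In the other direction, Txnrd1 had a log2 ratio of -0.13 (-0.22 to -0.05) and Prdx1 of -0.02 (-0.04 to -0.005) there, and the interval of Gsto1 (-0.18 to 0.15) included 0. Gstp1 was at 38.6 CPM against 14.3 CPM in control. Gstp2 was at 6.70 CPM against 2.94 CPM. Gsta4 was at 803 CPM against 719 CPM. Gclm was at 111 CPM against 93.6 CPM. Txn1 was at 1385 CPM against 1024 CPM. Nqo1 was at 66.0 CPM against 53.3 CPM. Hmox1 was at 95.7 CPM against 86.2 CPM.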

How the results depend on the processing

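Of 139 values under alternatives, 116 stayed within a set range of the reported value and 23 moved. The range was the counting interval for a ratio, and 1.5 times for a count. For a median ratio it was the median width of the counting intervals of single genes. For a median r it was the sampling error of a single r (0.028 either way in control and 0.038 in sonKD). These ranges are wide for a median. The median over all genes, -0.116, was counted as staying at -0.0259 with TMM factors. None of the 139 values reversed a call. Txnrd1, whose interval includes 0, had another sign under 2. With TMM factors the log2 ratios were 0.194 for Gsta4, 0.233 for Gclm, 0.556 for Txn1, 0.0776 for Txnrd1, 0.12 for Prdx1, 0.232 for Hmox1 and 0.233 for the median of the members. Without mitochondrial and ribosomal protein genes in the total they were 0.174 for Gsta4, 0.214 for Gclm, 0.537 for Txn1, 0.0583 for Txnrd1, 0.101 for Prdx1 and 0.214 for the median. Gsta4 was at 0.0724 with at most 5% mitochondrial UMIs, and Hmox1 at 0.222 from 5000 UMIs. Genes at least 0.3 higher numbered 510 with TMM factors, 181 from 50 CPM and 7322 with no filter. Genes at least 0.3 lower numbered 445 with TMM factors, 519 without mitochondrial and ribosomal protein genes, 287 from 50 CPM and 3815 with no filter. The filters change how many genes are tested; the cause of the other moves was not tested. On log counts without thinning, the median r in sonKD was 0.104. The members at least 0.3 higher numbered 2 with at most 5% mitochondrial UMIs or with likely doublets removed (198 control and 60 sonKD barcodes of most UMIs), since Nqo1 was then under 0.3. Gstp1 stayed between 1.41 and 1.58. The correlations with Gstp1 and Gstp2 summed were not run, because the sum was under 0.1 UMI per thinned cell. The alternatives for correlations without Hmox1-rich cells and with shares regressed out, and those for counts over all genes, were chosen after seeing the data. No paired analysis was possible because each group has 1 library. Depth limits Gstp2 most, with 95 and 187 UMIs.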
